A study of Mus musculus with 4 samples.

Results

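Fgf5, Otx2 and Pou3f1 are 3 genes of the formative state, described here by the accessible chromatin around them in mouse embryonic stem cells with and without the phosphatase genes Cdc14a and Cdc14b. They were taken by name, as 3 of the 21887 protein-coding genes of the mouse assembly used, and every peak overlapping a gene body or the 100 kb on either side of it was assigned to that gene. Together the windows held 472 of the 838566 peaks in 4 libraries. In the KO day 5, WT day 5, KO day 0 and WT day 0 libraries they held 121, 114, 119 and 118 peaks.

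All 4 libraries came from embryonic stem cells derived from mouse blastocysts and were profiled by ATAC-seq on single nuclei, where a transposase inserts adapters into open DNA. Each group was 1 library, carrying the same clone number in the labels: Cdc14ab KO and wild-type (WT) cells after 5 days in neural medium (N2B27 with the growth factors EGF and FGF2), and Cdc14ab KO and wild-type cells at day 0, kept undifferentiated with the cytokine LIF. Stem cells had been kept on feeder cells, which were removed by growth on gelatin before nuclei were taken. The deposited lists give where peaks lie but neither height nor count, so a level here is the sequence covered by peaks, and fewer nuclei with an open site and weaker opening per nucleus cannot be told apart. With 1 library per group no test between conditions could be made, a difference between clones and a difference between genotypes cannot be told apart, and all comparisons below are descriptions of these libraries.

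Pluripotent cells leave the naive state through a formative state before they commit to a lineage. In mouse, that passage is marked by the shutdown of naive factors and by the onset of Fgf5, Otx2 and Pou3f1. Fgf5 encodes a secreted fibroblast growth factor and is a classical marker of the post-implantation epiblast, served by several enhancers around and downstream of the gene. Otx2, a homeodomain factor, and Pou3f1 (also called Oct6), a POU-domain factor, are transcription factors that also act later in the neural lineage.

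RefSeq (GRCm38.p6) promoter sequences, 250 bases before and 50 after an annotated start, were found for 2 of the 3 genes: 1 start of Fgf5 and 4 of Otx2. Those shown are the Fgf5 start, which lay under a peak in every library, and the first, the third and the fourth start of Otx2 (counted from the most upstream), which differed in whether a peak lay over them. Capitals mark matches, on either strand, to the 10 motifs searched.
Fgf5 start, chr5:98253934-98254233, plus strand: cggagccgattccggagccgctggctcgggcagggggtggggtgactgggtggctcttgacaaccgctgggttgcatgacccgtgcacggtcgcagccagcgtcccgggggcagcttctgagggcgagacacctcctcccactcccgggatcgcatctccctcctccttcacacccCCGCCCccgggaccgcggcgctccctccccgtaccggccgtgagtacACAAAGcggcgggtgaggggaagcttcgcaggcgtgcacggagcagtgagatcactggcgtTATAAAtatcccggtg
Otx2, the first start, chr14:48667595-48667894, minus strand: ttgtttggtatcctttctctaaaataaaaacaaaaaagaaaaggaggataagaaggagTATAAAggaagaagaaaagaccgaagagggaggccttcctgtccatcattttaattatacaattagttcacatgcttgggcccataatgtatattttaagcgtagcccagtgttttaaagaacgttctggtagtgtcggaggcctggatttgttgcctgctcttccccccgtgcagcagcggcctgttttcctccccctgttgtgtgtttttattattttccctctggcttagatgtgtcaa
Otx2, the third start, chr14:48665060-48665359, minus strand: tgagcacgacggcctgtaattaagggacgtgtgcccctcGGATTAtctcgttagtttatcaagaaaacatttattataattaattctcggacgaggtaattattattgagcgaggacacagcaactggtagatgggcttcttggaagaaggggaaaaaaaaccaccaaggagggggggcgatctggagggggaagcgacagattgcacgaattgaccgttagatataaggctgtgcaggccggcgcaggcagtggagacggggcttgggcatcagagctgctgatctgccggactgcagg
Otx2, the fourth start, chr14:48662685-48662984, minus strand: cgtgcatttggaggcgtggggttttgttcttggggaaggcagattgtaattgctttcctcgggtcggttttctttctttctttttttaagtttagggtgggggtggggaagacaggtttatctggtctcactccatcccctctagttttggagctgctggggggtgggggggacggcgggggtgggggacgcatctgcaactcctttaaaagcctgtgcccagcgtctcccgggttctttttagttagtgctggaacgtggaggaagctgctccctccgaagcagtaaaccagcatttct
The Fgf5 sequence held a GC box (GGGCGG, read here on the other strand), a SOX motif (ACAAAG) and a TATA box (TATAAA). The first Otx2 start held a TATA box, and the third held an OTX motif (TAATCC, read here as its complement GGATTA), the letters that OTX2 protein itself is known to bind. The second Otx2 start, which overlaps the first and is not printed, held a CCAAT box (CCAAT), and the fourth held none of the 10. No matched letters were shared between motifs. Among all 32851 promoters of the same length, 35.7% held the GC box, 18.7% the SOX motif, 13.6% the TATA box, 7.06% the OTX motif and 37.4% the CCAAT box. The other motifs searched, in no printed start, were the octamer ATGCAAAT (1.74% of promoters), an E-box (CACGTG, 7.15%), an ETS motif (GGAAGT, 23.8%), a TCF/LEF motif (CTTTGA, 16%) and a ZIC motif (CAGCAGG, 10.5%). A match describes letters and shows no bound factor.

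Base composition separated the Fgf5 start from those of Otx2. The Fgf5 sequence was 68.3% G or C and held 29 CpG dinucleotides, more than 87.1% of all promoters. The Otx2 starts held 6, 8, 16 and 11 CpGs from the first to the fourth, around the median of 7 over all promoters.

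The WT day 5 list was the shortest and differed from the other 3 at named Y-linked genes. Lists held 227878 (KO day 5), 189571 (WT day 5), 222257 (KO day 0) and 198860 (WT day 0) peaks, with median widths of 873 to 882 bp. The Y-linked genes Eif2s3y, Uty and Ddx3y each had 1 peak in the WT day 5 library and 0 in the other 3. The whole Y chromosome held 14 peaks in KO day 5, 20 in WT day 5, 16 in KO day 0 and 16 in WT day 0. The day 5 against day 0 comparison in WT and the KO against WT comparison at day 5 rest on the WT day 5 library. The KO time course and the day 0 comparison do not use it. Labels could be set against markers by the starts under a peak. Of 10 naive pluripotency genes with an annotated start, 8, 8, 10 and 10 had it under a peak in KO day 5, WT day 5, KO day 0 and WT day 0. Of 10 neural progenitor genes the counts were 9, 10, 10 and 10, and of 8 fibroblast genes they were 5, 5, 6 and 4. Over all annotated starts, counted per start and not per gene, the shares were 54.3%, 52.8%, 53.7% and 52.3% in the same order. Start peaks of neural and fibroblast genes were thus present at both days, for fibroblast genes at about the share of all starts. They do not by themselves separate the cell types.

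Fgf5, the ligand of the 3 genes, lies on chromosome 5 (chr5:98254184-98277033, plus strand). Its window held 30 peaks in KO day 5, 29 in WT day 5, 30 in KO day 0 and 24 in WT day 0. These covered 25.9 kb in KO day 5, 25.3 kb in WT day 5, 25.4 kb in KO day 0 and 20.5 kb in WT day 0. The WT day 0 library was the low one, and the other 3 lay between 25.3 and 25.9 kb. In share of the window, coverage was 11.6%, 11.4%, 11.4% and 9.19% in the same order, near the median of all gene windows in each library (12.3%, 9.62%, 12.5% and 11.2%). The order by level was KO day 5, KO day 0, WT day 5 and WT day 0, and exact 95% intervals for every ratio of peak numbers, which cover counting error only, included no difference.

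The Fgf5 start itself was open in all 4 libraries. A peak over it measured 879 bp in KO day 5, 893 bp in WT day 5, 960 bp in KO day 0 and 950 bp in WT day 0, and covered all 300 promoter bases each time. Of all annotated starts, a peak covered 54.3% in KO day 5, 52.8% in WT day 5, 53.7% in KO day 0 and 52.3% in WT day 0. A neighbouring region 1.84 kb inside the gene was likewise held by all 4, with 878, 859, 894 and 894 bp. Presence of these regions separated neither days nor genotypes, and both peaks were narrower at day 5 than at day 0 in each genotype.

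Inside the 3′ part of Fgf5, a pair of regions was listed in every library except WT day 0. The region at chr5:98273867-98274744, 20.1 kb from the start, had 803 bp in KO day 5, 769 bp in WT day 5, 847 bp in KO day 0 and 0 bp in WT day 0. At chr5:98275093-98275985, 21.4 kb from the start, the values were 893, 821, 791 and 0 bp. Another region with this pattern lay 39.4 kb upstream at chr5:98214307-98215325, with 913, 865, 923 and 0 bp. These were present in KO cells already at day 0, where the nearest peak of the WT list was 7601 bp or more from each of them. The pattern was found in 3 of 38 Fgf5 regions (7.89%) and 3.14% of regions genome-wide.

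Other regions around Fgf5 went with the day in both genotypes. Regions held by both day 5 libraries and neither day 0 library numbered 4 of 38, against 5.01% of regions genome-wide. Those were chr5:98220453-98221482, 33.2 kb upstream (991 bp in KO day 5 and 977 bp in WT day 5), and chr5:98226634-98227549, 27.1 kb upstream (870 and 916 bp). The remaining ones lay inside the neighbouring gene Cfap299, 103.5 and 121.2 kb downstream of the start. A single region, 6.41 kb upstream (chr5:98247435-98248107), was held by both day 0 libraries only, with 425 bp in KO day 0 and 673 bp in WT day 0, against 5.73% of regions genome-wide. With the upstream regions absent, WT day 0 had a stretch of 51.9 kb without a peak, ending 6.75 kb before the start. Wholly inside it, KO day 5 had 3 peaks, WT day 5 had 4 and KO day 0 had 1.

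Downstream of Fgf5, 5 regions between the gene and the Cfap299 gene body were held by all 4 libraries, at 29.9, 36.9, 39.2, 56.4 and 58.1 kb from the start. The region at 48.5 kb had 877 bp in KO day 5, 0 bp in WT day 5, 876 bp in KO day 0 and 877 bp in WT day 0. It was the only region between the gene and Cfap299 that the WT day 5 list alone lacked. The other neighbour, Prdm8, which encodes a PR-domain zinc-finger protein, held 7 peaks in KO day 5, 6 in WT day 5, 8 in KO day 0 and 6 in WT day 0. Both KO libraries alone held 2 regions of the Fgf5 window, against 3.68% of regions genome-wide. They lay 72.8 kb upstream inside Prdm8 (820 bp in KO day 5 and 814 bp in KO day 0) and 88.4 kb downstream inside Cfap299 (843 and 757 bp). Both WT libraries alone held 1, 116.3 kb downstream (924 bp in WT day 5 and 757 bp in WT day 0), against 0.854% genome-wide.

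**Figure D1:**
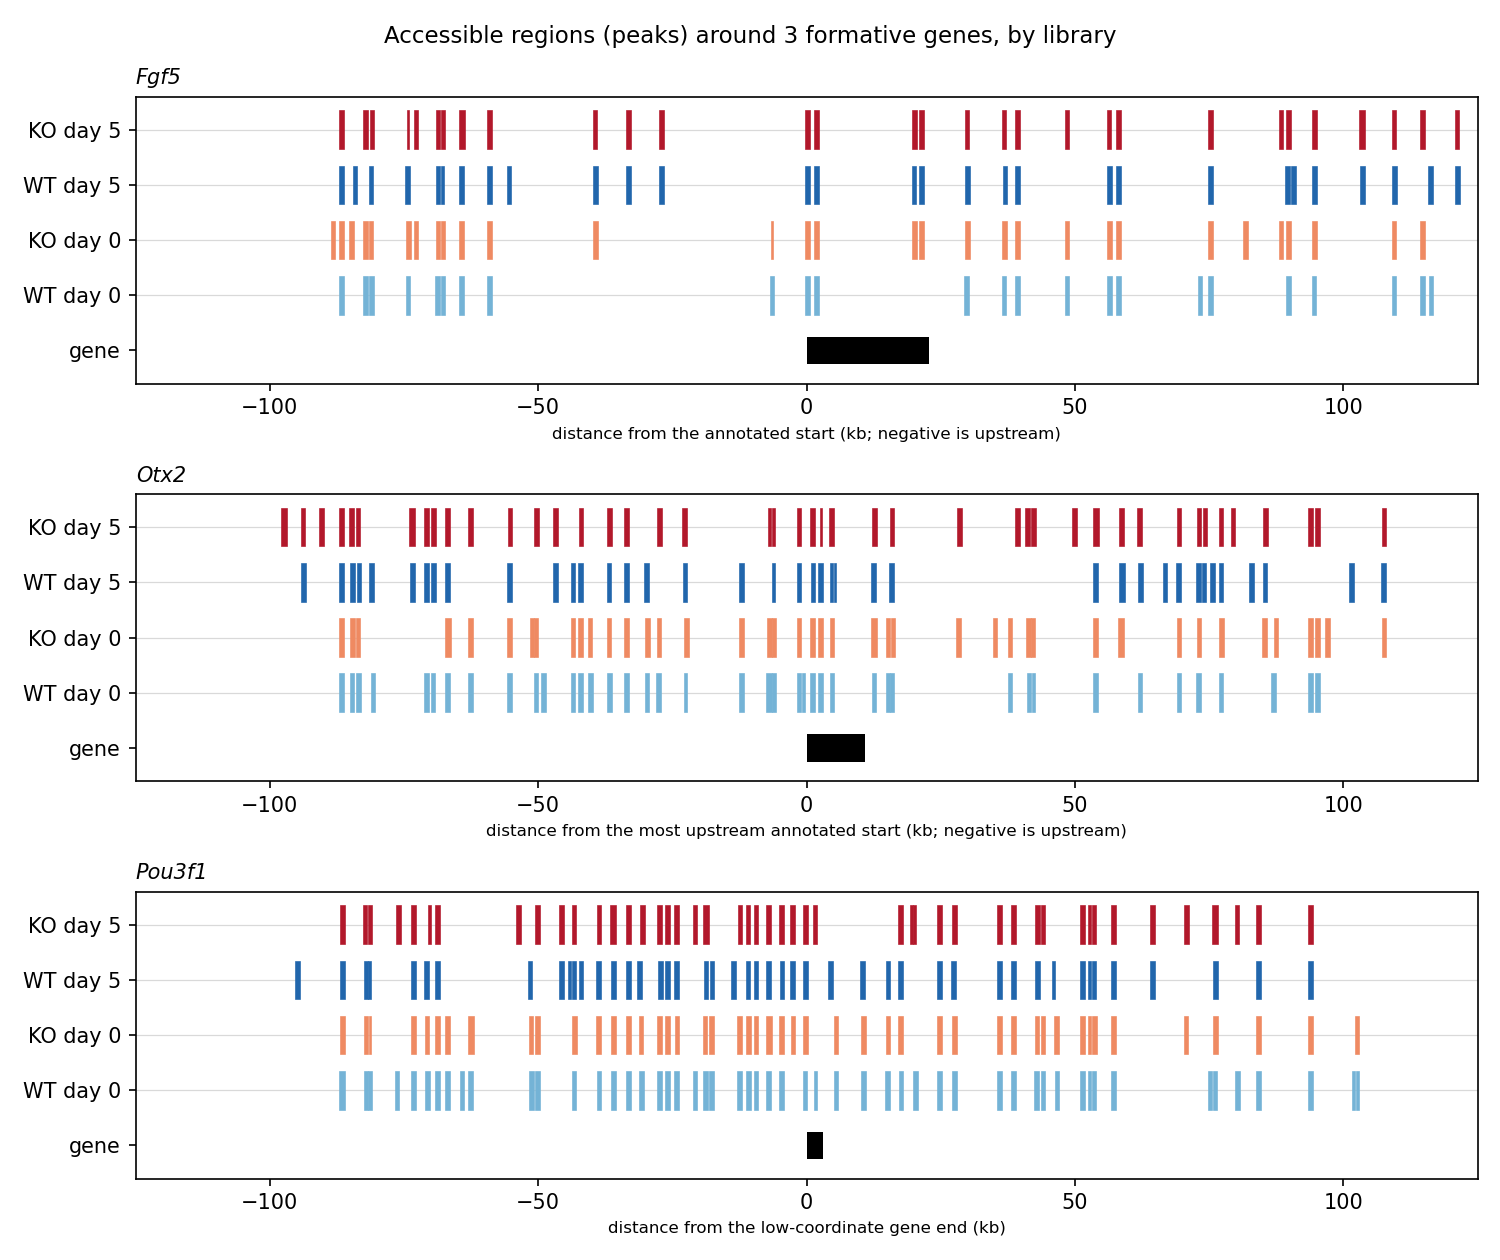
Peaks of each library (rows, KO day 5, WT day 5, KO day 0 and WT day 0 from the top) against distance in kb from the gene start, or from the low-coordinate gene end for Pou3f1; black bars are gene bodies. WT day 0 has no Fgf5 peak in a stretch of 51.9 kb upstream, and WT day 5 has no Otx2 peak in a stretch of 37.1 kb downstream.

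Otx2, the homeodomain factor, lies on the minus strand of chromosome 14 (chr14:48656781-48667644). Its window held 44 peaks in KO day 5, 39 in WT day 5, 42 in KO day 0 and 41 in WT day 0. Covered sequence came to 38.1 kb in KO day 5, 33.1 kb in WT day 5, 35.8 kb in KO day 0 and 34.4 kb in WT day 0. Thus KO exceeded WT at both days, in lists that were longer in KO at both days. Per length the shares were 18.1%, 15.7%, 17.0% and 16.3%, above 85.1%, 90.2%, 73.6% and 77.1% of all gene windows. The highest level was in KO day 5, followed by KO day 0, WT day 0 and WT day 5, and the exact 95% intervals of the peak ratios included no difference for each pair compared.

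Of the 4 annotated Otx2 starts, 2 lay under a peak and 2 did not. The first and the second start, at 48667644 and 48667508, lay under no peak in any library. At the first start the nearest peak was 704 bp away in KO day 5, 758 bp in WT day 5, 604 bp in KO day 0 and 285 bp in WT day 0. WT day 0 came closest through a peak of 585 bp (chr14:48667929-48668513) that no other library listed. The third start, at 48665109, and the fourth, at 48662734, lay under a peak in all 4 libraries.

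At the third start, the one with the OTX motif letters printed above, the KO day 5 peak was narrow. It measured 348 bp in KO day 5 (chr14:48664842-48665189), 925 bp in WT day 5, 884 bp in KO day 0 and 925 bp in WT day 0. It covered 130 of the 300 promoter bases, and the other 3 libraries covered all 300. Only 0.150% of KO day 5 peaks were narrower than 348 bp, whereas 86.0%, 54.1% and 86.9% of their own list were narrower than the WT day 5, KO day 0 and WT day 0 peaks. At the fourth start all 300 promoter bases were covered in each library. The region over it held 828 bp in KO day 5, 1090 bp in WT day 5, 719 bp in KO day 0 and 742 bp in WT day 0. In WT day 5 this was the sum of 2 peaks. The one over the start (chr14:48662651-48663280) was the wider of these, and was narrower than the peak over that start in each other library.

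**Figure D2:**
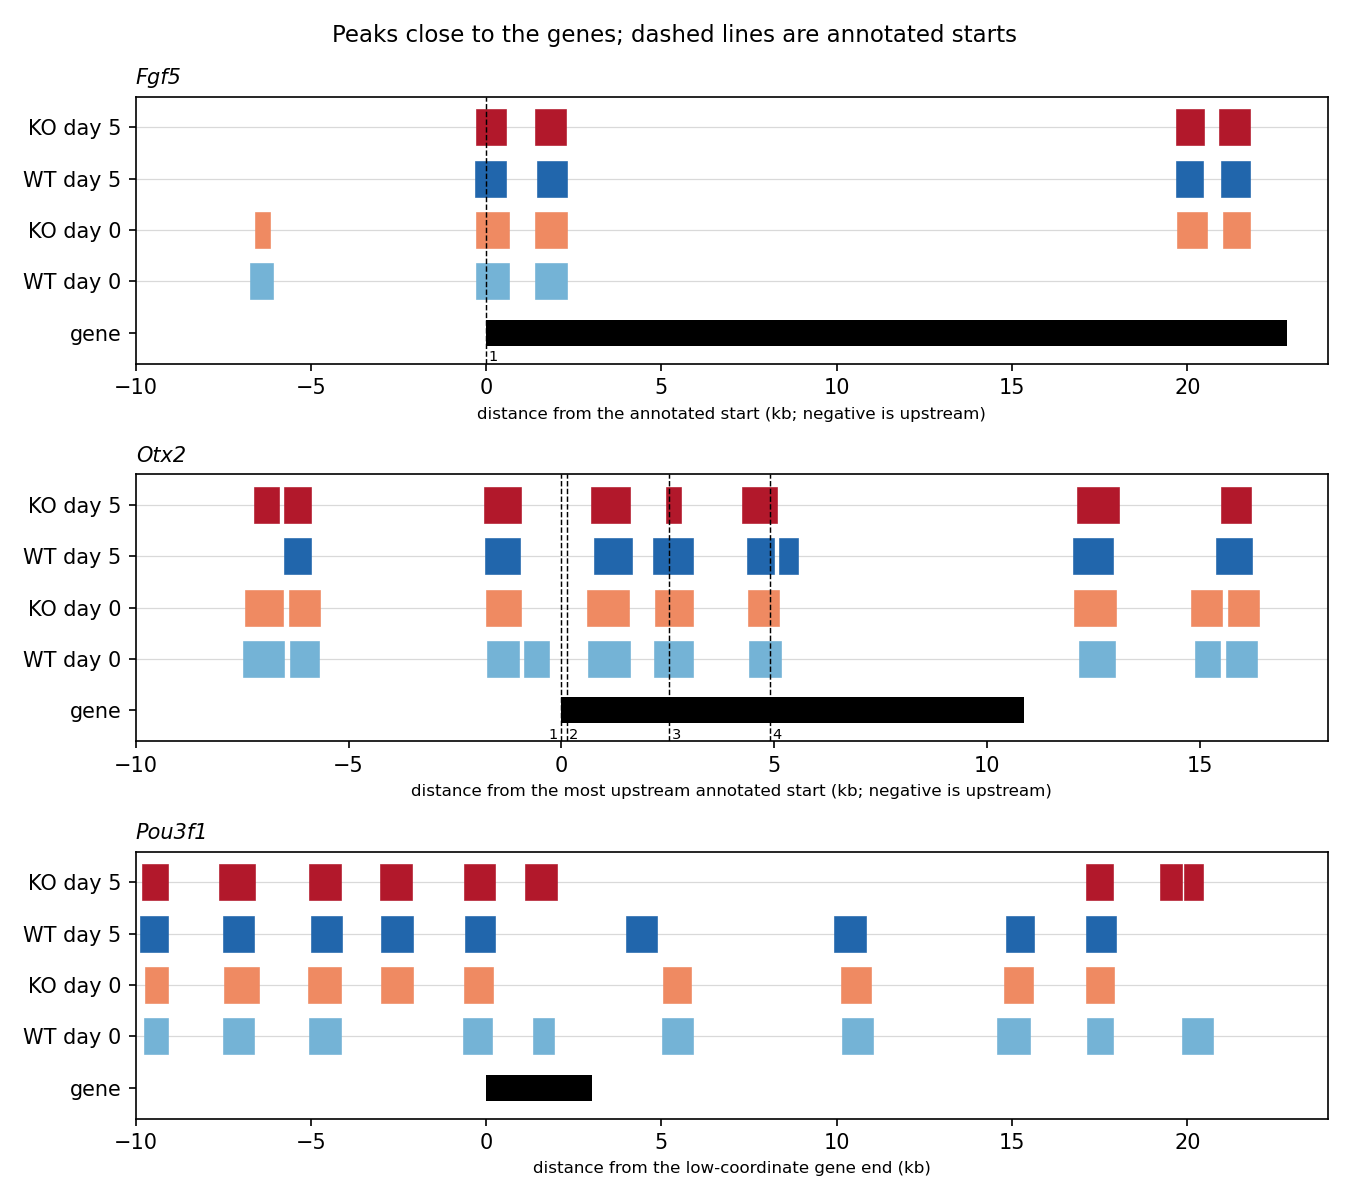
Peaks close to the 3 genes, with libraries from the top as KO day 5, WT day 5, KO day 0 and WT day 0, distance in kb on the x axis and dashed lines for numbered annotated starts. The Fgf5 start and the third and the fourth Otx2 start lie under a peak in every library, and the KO day 5 peak at the third Otx2 start measures 348 bp.

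Close to Otx2 the layout was largely common to the 4 libraries. Within 20 kb of its most upstream start, 7 of 9 regions were held by all 4, against 33.8% of regions genome-wide at any distance. Farther out the counts were 6 of 22 (20 to 60 kb) and 7 of 28 (beyond 60 kb). In the same bands they were 2 of 3, 6 of 13 and 10 of 22 for Fgf5. For Pou3f1, measured from its low-coordinate end, they were 7 of 17, 17 of 27 and 8 of 18, with the nearest band the least shared. Besides those at the Otx2 starts, an open region inside Otx2, 1.13 kb from the first start, had 906 bp in KO day 5, 897 bp in WT day 5, 986 bp in KO day 0 and 972 bp in WT day 0. The widest region of the window (chr14:48673322-48675132), 6.58 kb upstream, was held by all 4 with 1233 bp in KO day 5, 636 bp in WT day 5, 1619 bp in KO day 0 and 1662 bp in WT day 0. Covered sequence there was smaller at day 5 in both genotypes, and WT day 5 had 1 peak where the other 3 had 2. Another region, 15.6 kb downstream of the first start (chr14:48651253-48652862), had 716 bp in KO day 5, 835 bp in WT day 5, 1473 bp in KO day 0 and 1329 bp in WT day 0. There both day 0 lists had 2 adjacent peaks and both day 5 lists had 1.

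Beyond that region the WT day 5 library had 37.1 kb without a peak, from 16.2 to 53.4 kb downstream of the first start. Peaks wholly inside that stretch numbered 5 in KO day 5, 5 in KO day 0 and 3 in WT day 0. In KO day 5 and KO day 0 the longest stretch without a peak in the Otx2 window was 15.1 and 15.8 kb, and in WT day 0 it was 21.2 kb. Within the stretch, neighbouring regions at 42.3 kb (chr14:48624899-48625820) and 41.3 kb (chr14:48625852-48626904) were held by all libraries except WT day 5. The first had 922 bp in KO day 5, 612 bp in KO day 0 and 649 bp in WT day 0, and the second 899, 778 and 811 bp. Regions lacking in WT day 5 alone made up 7 of 59 in the Otx2 window, against 8.94% genome-wide.

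Regions that went with the day around Otx2 were near the share in the genome. Both day 5 libraries alone held 4 of 59 (6.78%, against 5.01% genome-wide), of which 3 were upstream, at 46.8, 73.6 and 93.8 kb, and 1 was 74.1 kb downstream. That downstream region lay 35 bp from a KO day 0 peak and 92 bp from a WT day 0 peak. The one at 73.6 kb (chr14:48740680-48741774) was the widest, with 1095 bp in KO day 5 and 947 bp in WT day 5. Both day 0 libraries alone held 3 (5.08%, against 5.73%), at 40.4 kb upstream and at 37.9 and 87.2 kb downstream. Both KO libraries alone held 1 region (1.69%, against 3.68%), 28.4 kb downstream, with 945 bp in KO day 5 and 864 bp in KO day 0. Both WT libraries alone held 1 (1.69%, against 0.854%), 80.9 kb upstream. Of the 29 upstream regions, 28 lay on another annotated gene, mostly the long noncoding RNA Otx2os1, which lies upstream of the Otx2 starts.

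Regions held by a single library made up 13.2% of the Fgf5 regions (5 of 38), 23.7% of the Otx2 regions (14 of 59) and 14.5% of the Pou3f1 regions (9 of 62), against 32% genome-wide. Around Otx2, KO day 5 alone listed 5, the widest at chr14:48764496-48765518 (1023 bp, 97.4 kb upstream). WT day 5 alone listed 4, KO day 0 alone 3 and WT day 0 alone 2. In the Fgf5 window KO day 5 listed none of its own, and KO day 0 the widest one (991 bp, chr5:98335498-98336488). In the Pou3f1 window KO day 0 listed none of its own, and WT day 5 the widest one (1036 bp, chr4:124562247-124563282). A region seen in 1 list alone can lie next to a peak of another, as the peak near the first Otx2 start did, 85 bp from a KO day 5 peak.

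Pou3f1, the POU factor, is a short gene on chromosome 4 (chr4:124657646-124660655). Distances are given from its low-coordinate end. The window held 47 peaks in KO day 5, 46 in WT day 5, 47 in KO day 0 and 53 in WT day 0. They covered 40.0 kb in KO day 5, 39.0 kb in WT day 5, 40.3 kb in KO day 0 and 44.4 kb in WT day 0. WT day 0 was the high library here, and the other 3 lay between 39.0 and 40.3 kb. The window was covered to 19.7%, 19.2%, 19.8% and 21.9%, more than 92.0%, 98.0%, 87.5% and 96.3% of all gene windows. Exact 95% intervals for the ratios of peak numbers included no difference here too.

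A region over the low-coordinate end of Pou3f1 (chr4:124656989-124657888) was open in all 4 libraries, with 860 bp in KO day 5, 862 bp in WT day 5, 841 bp in KO day 0 and 812 bp in WT day 0. Presence at this end did not separate the days or the genotypes. The region next to it, 2.56 kb on the low-coordinate side (chr4:124654615-124655554), had 905 bp in KO day 5, 907 bp in WT day 5, 907 bp in KO day 0 and 0 bp in WT day 0. It was the only Pou3f1 region lacking in WT day 0 alone, in the library with the most peaks in this window. Inside the gene body, the region at 1.56 kb (chr4:124658752-124659667) had 916 bp in KO day 5, 0 bp in WT day 5, 0 bp in KO day 0 and 600 bp in WT day 0. This crossed pattern, KO day 5 with WT day 0, followed neither day nor genotype and was found in 5 of 62 regions (8.06%), against 1.83% genome-wide.

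On the high-coordinate side of Pou3f1, KO day 5 had no peak from 2.02 to 17.1 kb. WT day 5, KO day 0 and WT day 0 each had 3 peaks wholly inside that stretch. Of these regions, those at 10.5 kb (chr4:124667559-124668667) and 15.1 kb (chr4:124672220-124673263) were held by every library except KO day 5. The first had 915 bp in WT day 5, 864 bp in KO day 0 and 873 bp in WT day 0, and the second 786, 827 and 946 bp. The region at 5.46 kb was held by both day 0 libraries only, with 810 bp in KO day 0 and 866 bp in WT day 0. A WT day 5 peak lay 144 bp from this region. Regions lacking in KO day 5 alone numbered 5 of 62 (8.06%), against 1.71% genome-wide.

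Regions of Pou3f1 held by both day 5 libraries only were 2 of 62 (3.23%, against 5.01% genome-wide), at 45.7 kb on the low-coordinate side (877 bp in KO day 5 and 947 bp in WT day 5) and 64.5 kb on the high-coordinate side, within Sf3a3 (940 and 933 bp). Both day 0 libraries alone held 4 (6.45%, against 5.73%), at 67.0 and 62.5 kb on the low side and 5.46 and 102.2 kb on the high side. Both KO libraries alone held 1 region (1.61%, against 3.68%), 70.7 kb on the high side, and both WT libraries alone held 0 (against 0.854%). The widest region (chr4:124574951-124576723), 81.8 kb on the low side, was held by all 4 with 1594, 1108, 1222 and 1355 bp in KO day 5, WT day 5, KO day 0 and WT day 0. All 34 regions on the low side lay on another annotated gene, chiefly the long noncoding RNA Gm2164. The other protein-coding genes in this window were Utp11, a ribosomal RNA processing factor, Fhl3, a LIM-domain protein, Sf3a3, a splicing factor subunit, and Inpp5b, an inositol phosphatase. Starts of Fhl3, Sf3a3 and Inpp5b lay under a peak in all 4 libraries. In the Otx2 window the protein-coding neighbour was Tmem260, a membrane protein gene that lay only partly in the window. Its part there held 1 peak in each of KO day 5, WT day 5 and KO day 0, and 0 in WT day 0. Its starts, outside the window, lay under peaks in all 4 libraries.

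**Figure D3:**
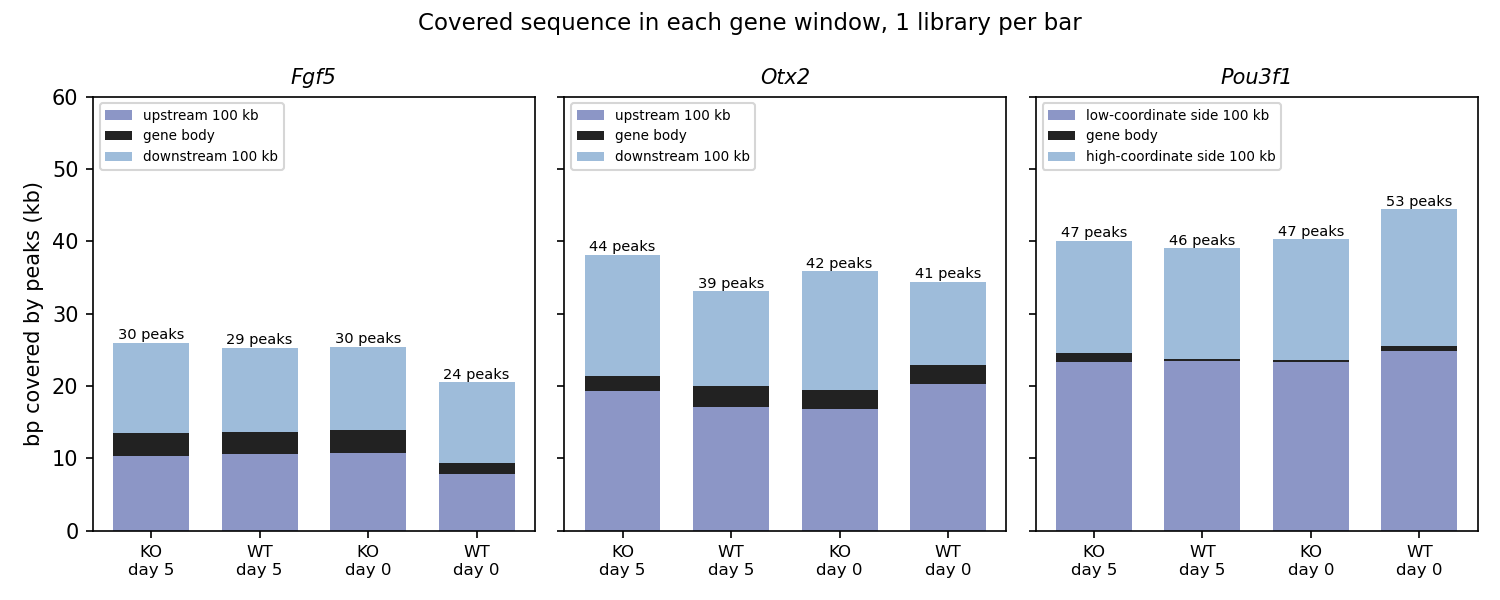
Sequence covered by peaks in kb (y axis) in each gene window, stacked by position relative to the gene, 1 library per bar in the order KO day 5, WT day 5, KO day 0 and WT day 0. Fgf5 coverage is lowest in WT day 0 (20.5 kb), Otx2 coverage highest in KO day 5 (38.1 kb) and Pou3f1 coverage highest in WT day 0 (44.4 kb).

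Over the 3 windows, joined regions (runs of overlapping peaks from any library) numbered 159, of which 70 (44.0%) were held by all 4 libraries, against 33.8% genome-wide. By gene the shares were 47.4% of 38 for Fgf5, 33.9% of 59 for Otx2 and 51.6% of 62 for Pou3f1. Otx2 was thus at the level of the genome. Without the WT day 5 list, 83 of 148 regions (56.1%) were held by the other 3, against 47.0% genome-wide. Both day 5 libraries alone held 10 of 159 (6.29%, against 5.01%) and both day 0 libraries alone held 8 (5.03%, against 5.73%). Both KO libraries alone held 4 (2.52%, against 3.68%) and both WT libraries alone 2 (1.26%, against 0.854%). Presence by day or by genotype was therefore about as frequent as in the genome.

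Relative coverage was compared as the log2 ratio of covered bp, after adding 500 bp to each, minus the median of this ratio over all protein-coding gene windows with a covered base. The subtraction was needed because the lists differ in length: the medians were 0.32 (KO against WT, day 5), 0.12 (KO against WT, day 0), −0.03 (day 5 against day 0, KO) and −0.23 (day 5 against day 0, WT). These comparisons share libraries, so their values are not independent. A relative ratio past 1.5-fold (0.58 on the log2 scale) is called higher or lower here. None of the 3 genes passed it in any of the 4 comparisons.

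For KO against WT at day 5, the relative log2 ratio was −0.28 for Fgf5, −0.12 for Otx2 and −0.28 for Pou3f1. Among 21068 windows, 6.49% were past 1.5-fold higher and 3.36% lower. Fgf5 and Pou3f1 lay above 12.8% and 13.0% of windows and Otx2 above 30.7%. All 3 were below the median window although each had more covered bp in KO, since the median log2 ratio subtracted was 0.32. Median coverage over the windows was 30000 bp in KO day 5 and 23759 bp in WT day 5. On the cell type lists, the median relative ratio in this comparison was −0.26 for neural progenitor genes, −0.11 for fibroblast genes and 0.13 for naive genes. The part of these cell types in the values of the 3 genes was not tested.

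For KO against WT at day 0, the relative log2 ratio was 0.18 for Fgf5, −0.06 for Otx2 and −0.26 for Pou3f1. Called windows made up 3.38% (higher) and 2.47% (lower) of 20981. Fgf5 lay above 79.7% of windows, Otx2 above 37.6% and Pou3f1 above 9.38%. The 3 genes thus spread to both sides of the median window in undifferentiated cells. Fibroblast genes had a list median of 0.26 in the same comparison, with 12 of 14 above the median window, and their part in the Fgf5 value was not tested.

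For day 5 against day 0 in KO cells, values were 0.06 for Fgf5, 0.12 for Otx2 and 0.02 for Pou3f1. Called windows made up 6.24% (higher) and 1.22% (lower) of 21075, and the genes lay above 60.7%, 68.8% and 54.0% of windows. No direction held for these values: Otx2 was at −0.22 with 50 kb and −0.39 with 20 kb on each side, Fgf5 at −0.08 and Pou3f1 at −0.11 with 20 kb. The KO time course does not use the WT day 5 list, and its fibroblast median was 0.01.

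For day 5 against day 0 in WT cells, values were 0.53 for Fgf5, 0.18 for Otx2 and 0.05 for Pou3f1. Called windows made up 8.97% (higher) and 4.64% (lower) of 20976. Fgf5 lay above 89.7% of windows, the highest rank it reached, without passing 1.5-fold. With 50 kb on each side in place of 100 kb it did pass, at 0.66. Otx2 turned to −0.17 with 50 kb and −0.09 with 20 kb, and Pou3f1 to −0.13 when scaled by total covered bp. In this comparison all 12 neural progenitor genes lay above the median window, with a list median of 0.28. Fibroblast genes had a median of 0.51, with 5 of 14 past 1.5-fold higher and 1 lower. Dcn, a fibroblast proteoglycan gene, was the highest at 2.02 (8.90 kb in WT day 5 and 2.22 kb in WT day 0). Lum, on the same chromosome and also called higher, had the same 2.22 kb in WT day 0, so these calls are not independent. These lists stood higher in the same comparison as Fgf5, and their part in it was not tested.

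The KO time course minus the WT time course was −0.47 for Fgf5 on the log2 scale, −0.06 for Otx2 and −0.02 for Pou3f1. Fgf5 lay above 9.06% of windows, Otx2 above 42.3% and Pou3f1 above 47.4%. The Fgf5 value combined 0.06 in KO cells with 0.53 in WT cells, and before the medians were subtracted the difference was −0.27. On that unscaled ratio Otx2 was at 0.14 and Pou3f1 at 0.18.

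**Figure D4:**
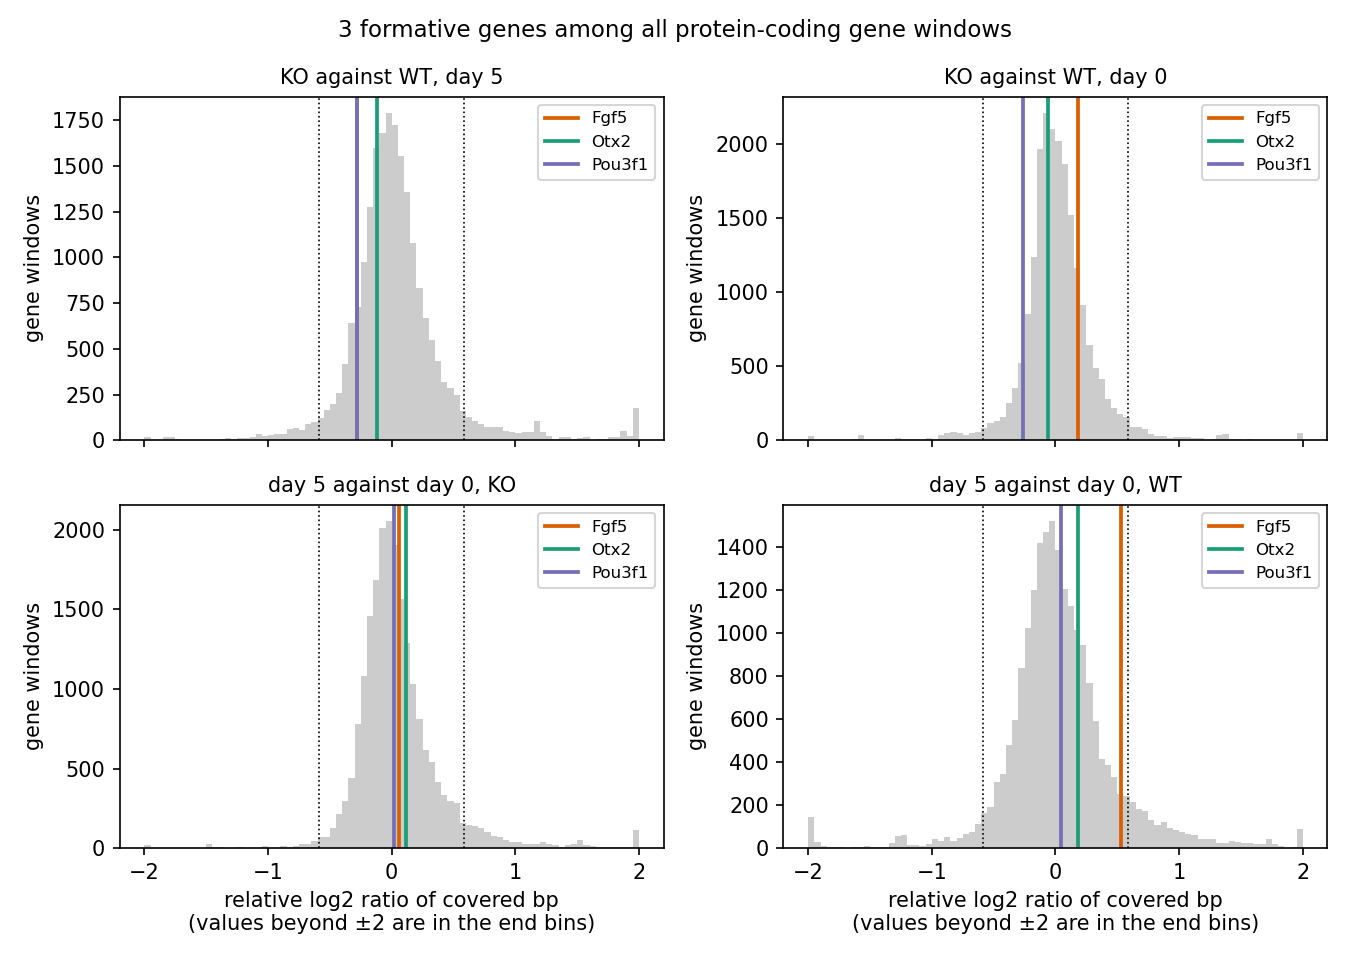
Numbers of protein-coding gene windows (y axis) by relative log2 ratio of covered bp (x axis) for KO against WT at day 5 and day 0 and for day 5 against day 0 in KO and WT; coloured lines mark Fgf5, Otx2 and Pou3f1 and dotted lines 1.5-fold. No gene lies beyond a dotted line, and Fgf5 comes closest in the WT time course at 0.53.

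A peak-by-peak comparison asked how many peaks of a library overlapped no peak of the other. At day 5, KO peaks without a WT partner numbered 5 of 30 for Fgf5 (16.7%, exact 95% interval 5.64 to 34.7), 14 of 44 for Otx2 (31.8%, 18.6 to 47.6) and 11 of 47 for Pou3f1 (23.4%, 12.3 to 38.0), against 36% of all KO day 5 peaks. Among WT day 5 peaks, 4 of 29 (13.8%), 9 of 39 (23.1%) and 10 of 46 (21.7%) lacked a KO partner, against 23.2% of all. Among these KO shares, only the Fgf5 interval lay below the 36% of all peaks, with its upper end at 34.7. Such intervals cover counting error only and neighbouring peaks are not independent, so this is a description and no test.

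At day 0 the Pou3f1 window was the one with the fewest KO peaks of its own. Just 2 of 47 (4.26%, exact 95% interval 0.520 to 14.5) lacked a WT partner, against 24.7% of all KO day 0 peaks. WT day 0 peaks covered 21.9% of this window, more than in 96.3% of gene windows. The share of all peaks is not matched for such density. Fgf5 had 8 of 30 (26.7%, 12.3 to 45.9) and Otx2 7 of 42 (16.7%, 6.97 to 31.4). WT day 0 peaks without a KO partner were 2 of 24 for Fgf5 (8.33%), 6 of 41 for Otx2 (14.6%) and 7 of 53 for Pou3f1 (13.2%), against 15.9% of all. The intervals cover counting error, and neighbouring peaks are not independent.

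Between days in KO cells, day 5 peaks without a day 0 partner were 4 of 30 for Fgf5 (13.3%), 12 of 44 for Otx2 (27.3%) and 9 of 47 for Pou3f1 (19.1%), against 27.4% of all. Day 0 peaks without a day 5 partner were 4 of 30 (13.3%), 9 of 42 (21.4%) and 9 of 47 (19.1%), against 25.4% of all. In WT cells, day 5 peaks without a day 0 partner were 10 of 29 for Fgf5 (34.5%, 17.9 to 54.3), 11 of 39 for Otx2 (28.2%) and 8 of 46 for Pou3f1 (17.4%, 7.82 to 31.4), against 33% of all. Day 0 peaks of WT cells without a day 5 partner were 5 of 24 (20.8%), 12 of 41 (29.3%) and 15 of 53 (28.3%), against 36% of all. Fgf5 peaks were thus more often shared between days in KO than in WT cells. The same direction held for all peaks, and the Fgf5 contrast was not tested.

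**Figure D5:**
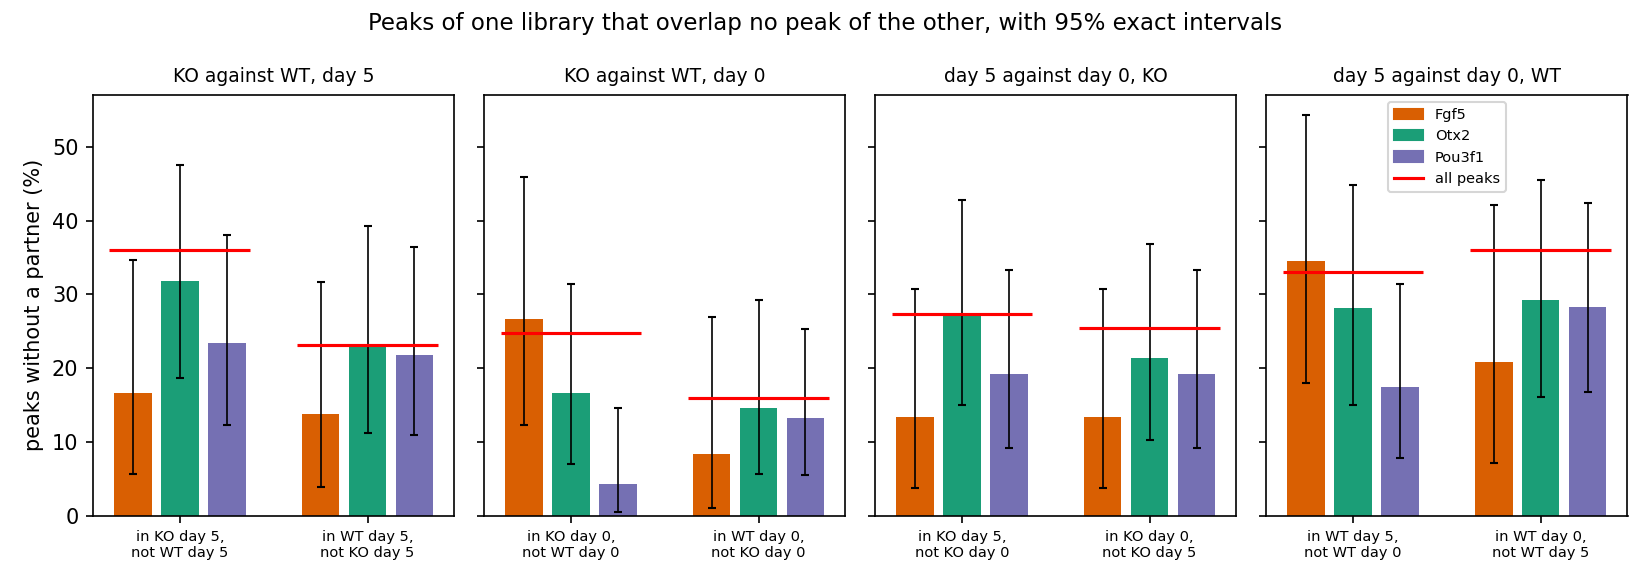
Share of peaks in each gene window (y axis, %) that overlap no peak of the other library, for the 4 comparisons and both directions; error bars are exact 95% intervals for counting error and red lines the share of all peaks. The Pou3f1 bar for KO day 0 peaks absent in WT day 0 is at 4.26%, against a red line at 24.7% that is not matched for peak density.

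Other formative genes were placed beside the 3 in a list of 23 that includes them. At day 5, KO against WT, 2 were past 1.5-fold higher (Wnt8a and Foxd3) and 2 lower (Cdh2 and Sox11), against 6.49% and 3.36% of all windows, with a list median of −0.04. Foxd3, a forkhead factor, was the highest at 0.67 (30.7 kb in KO day 5 and 15.2 kb in WT day 5). Cdh2, the gene of N-cadherin, was the lowest at −0.85 (26.5 kb in KO day 5 and 38.6 kb in WT day 5). At day 0, none of the 23 was past 1.5-fold, the median was −0.06, and the extremes were Sox11 at 0.31 and Pou3f1 itself at −0.26. In this list Pou3f1 was therefore the lowest gene at day 0.

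In the KO time course 1 of the 23 formative genes was past 1.5-fold, Sox11 (a SOX factor of neural progenitors) at −0.63, with 13.1 kb in KO day 5 and 21.0 kb in KO day 0, against 1.22% of all windows called lower. The list median was 0.06, and Sox3 was the highest at 0.38. In the WT time course 1 was past 1.5-fold, Cdh2 at 1.05 (38.6 kb in WT day 5 and 21.6 kb in WT day 0), against 8.97% of all windows called higher. There the median was 0.06 and Wnt8a, a Wnt ligand, was the lowest at −0.53. List medians thus lay between −0.06 and 0.06 in the 4 comparisons, with the 3 members counted in them. Without the 3 members they were 0.06 (KO against WT, day 5), −0.03 (day 0), 0.05 (KO time course) and 0.05 (WT time course). Fgf5, at 0.53 in WT, stood above the WT median without members, and Otx2 and Pou3f1 were nearer to it.

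Fgf5 signals through FGF receptors to the ERK kinases, and 25 genes of that pathway were listed. Past 1.5-fold were 0 at day 0, 1 lower at day 5 in KO against WT, 1 higher in the WT time course and 0 in the KO time course. Over all windows, 3.36% were called lower at day 5 and 8.97% higher in the WT time course. Both calls were of Spred1, an inhibitor of ERK signalling, at −0.62 (21.4 kb in KO day 5 and 26.4 kb in WT day 5) and 0.62 (26.4 kb in WT day 5 and 20.1 kb in WT day 0), and they share the WT day 5 library. List medians were 0.02 (day 5), 0.01 (day 0), −0.08 (KO time course) and −0.08 (WT time course). The highest were Fgfr3 at day 5 (0.27), Fgf2 at day 0 (0.42) and Etv4 in the KO time course (0.22). The lowest were Dusp4 at day 0 (−0.30) and Mapk3, the gene of ERK1, in the KO and WT time courses (−0.40 in each).

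Relatives of Otx2 and Pou3f1, with other regional factors of the early brain, made up a list of 13. Its calls were of Otx1, the closest relative of Otx2. Otx1 was lower in KO day 5 than in WT day 5 (−0.72, with 15.3 and 20.5 kb) and higher in the WT time course (0.65, with 20.5 kb in WT day 5 and 15.2 kb in WT day 0), both times through the WT day 5 library. Over all windows, 3.36% were called lower and 8.97% higher in these comparisons. No gene was called at day 0 or in the KO time course. List medians were −0.06 (day 5), −0.05 (day 0), −0.0044 (KO time course) and 0.15 (WT time course). The highest were Crx at day 5 (0.37), En1 at day 0 (0.35) and Pou3f3, a POU class III relative of Pou3f1, in the KO time course (0.56). The lowest were Otx1 at day 0 (−0.36), Gbx2 in the KO time course (−0.18) and Hesx1 in the WT time course (−0.16).

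Of the remaining cell type lists, naive pluripotency genes had medians of 0.13 (KO against WT, day 5), 0.11 (day 0), −0.07 (KO time course) and −0.16 (WT time course), with 11 of 14 below the median window in each time course. Endoderm genes (7) had medians of −0.02, 0.29, 0.04 and 0.46 in the same order, and mesoderm genes (6) of 0.09, 0.03, −0.08 and −0.04. All genes of these lists had covered sequence in every library. None of the defining fibroblast genes was therefore at 0, and the summed coverage of the 14 fibroblast windows was 334.9 kb in KO day 5, 288.2 kb in WT day 5, 332.8 kb in KO day 0 and 274.0 kb in WT day 0. Coverage shared by the Dcn and Lum windows enters these sums for each gene.

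The genes most like each member were found by the distance between profiles over the 4 libraries, each profile being log2 coverage relative to the library median and centred on 0. For Fgf5, among 19293 genes, they were Nudt7 (distance 0.0149), Kif26b (0.0201) and Scn3a (0.0280). Nudt7, on chromosome 8, had 11.1 kb in KO day 5, 10.7 kb in WT day 5, 10.7 kb in KO day 0 and 8.66 kb in WT day 0. Its lowest library was thus WT day 0, like that of Fgf5, as a choice by likeness would favour. For Otx2 they were Slc16a3 (0.00632), Trim28 (0.0106) and Ltbp3 (0.0123), and for Pou3f1 Gtdc1 (0.0196), Wnt9b (0.0213) and Eif4e2 (0.0220). Profiles within 0.1 of the member's were found for 0.622% of genes in the case of Fgf5, 3.17% for Otx2 and 0.892% for Pou3f1. The likeness rests on 4 points per profile and is given as a description only.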

How the data were processed

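For each library the authors deposited a list of peaks as chromosome, start and end. These positions carry no measured unit (other), and no score, height or count stands beside them. Per the file headers, each library's peaks were called on its own with cellranger-arc 2.0.0 and an mm10 reference. Scanpy 1.7.2 is also named, per the submitters' processing notes. Depth per library and the treatment of doublets are not given in the sources used here, and no doublet caller was run. The RNA side of the assay was not analysed here.

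Gene positions came from a RefSeq table of GRCm38.p6, whose chromosome coordinates are those of mm10, and promoters and strands from a second RefSeq table, matched by symbol. The window of a gene was its body plus 100 kb on each side. Covered bp were compared as log2 ratios with a pseudocount of 500 bp, minus the median over gene windows with a covered base in the comparison. Peaks were shared when they overlapped by at least 1 bp, and overlapping peaks of the 4 libraries were joined into regions. A region's distance is that of its midpoint from the start. Exact (Clopper-Pearson) 95% intervals cover counting error only. Wherever a stretch without peaks or a narrow peak was described, it was chosen after its values were seen.

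The members, gene lists and alternatives were chosen with earlier results of these data known. The formative list as first drawn up held 1 more gene, which is not reported here and does not enter the list's counts or medians. Named were the members, the protein-coding genes in their windows, the genes of each list past 1.5-fold with its highest and lowest gene (at least 2000 bp covered on average), the 3 most alike genes of each member (at least 5000 bp, windows not overlapping) and regions by position, width and pattern. The scripts were tested on simulated data. Python 3.11.15, numpy 2.4.6, pandas 2.3.3, scipy 1.17.1 and matplotlib 3.10.9 were used.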

Additional observations from a re-analysis of the deposited data

Results flagged for a closer look

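Opposite directions in a pair of groups under the same contrast were found for 1 gene and 3 lists, none of them tested, since each group is 1 library. The relative log2 ratio of Fgf5, KO against WT, was −0.28 at day 5 and 0.18 at day 0. Fibroblast genes had list medians of −0.11 at day 5 and 0.26 at day 0 in the same contrast. Endoderm genes had medians of −0.0204 at day 5 and 0.29 at day 0. The list of OTX and POU class III relatives had medians of −0.0044 for day 5 against day 0 in KO cells and 0.15 in WT cells. The day 5 comparison of genotypes and the WT time course use the WT day 5 library. No group held the 4 samples that a search for outlying samples needs.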

How the results depend on the processing

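The relative ratios of the 3 genes and their time course differences were recomputed under 9 alternatives each: windows of 50 or 20 kb, numbers of peaks, pseudocounts of 100 or 2000 bp, the 189571 widest peaks per library, a median over genes with at least 2000 bp or over autosomal genes, and scaling by total covered bp. All 135 values stayed within the counting interval of the original, an interval that is wide because windows hold few peaks, and 13 had the other sign. The other sign was given for the Otx2 time courses by the 50 and 20 kb windows (lowest −0.39 in KO and −0.17 in WT), and by at least 1 alternative for Fgf5 in KO, Pou3f1 in both genotypes and the Otx2 and Pou3f1 time course differences. It was not given for the ratios of KO against WT or for the Fgf5 time course difference, which ranged from −0.51 to −0.35. With 50 kb windows 1 gene, Fgf5, was past 1.5-fold in the WT time course, where it ranged from 0.35 to 0.66. Of 96 recomputed shares of peaks without a partner, 91 stayed within their interval. With 50 kb windows the share of WT peaks without a KO peak around Fgf5 was 0% at day 0 and 0% at day 5, and around Otx2 the share of day 5 peaks without a day 0 peak was 13.6% in KO and 11.1% in WT. With the widest peaks in equal numbers, 33.3% of WT day 0 peaks around Otx2 lacked a KO partner. All 12 recomputed region counts were within 1.5 times the original. The causes of these shifts were not tested. No paired analysis was possible because each group holds 1 library.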
